A study of Taeniopygia guttata with 169 samples.

Results

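Bone marrow of control zebra finches was compared between day 35, when juvenile birds have left the nest, and day 90, when zebra finches are young adults. The comparison used 38 RNA-sequencing libraries, out of a table that holds 76 control libraries, 82 of birds given methylmercury and 3 more that were left out, with 19 of day 35 (10 females and 9 males) and 19 of day 90 (8 females and 11 males). All came from birds whose treatment label is C, read here as control, and the libraries Z134 and Z93, both of day 90 females, were left out because they stood apart from the rest. The series asks how methylmercury (MeHg), mercury in organic form, given in food at 1.2 ppm, acts on the blood-forming system. Its MeHg birds of day 35 (21 libraries) and day 90 (21 libraries) had no part in calling the genes of the control step. Z142, a day 90 female given MeHg, was left out because it stood apart in the same way. Control and MeHg birds of day 6 and day 18 complete the design. The design text speaks of birds of varied historical exposure, and the labels do not say what that history was for the control birds. The birds fall into 18 title codes within 2 cohorts, and neither codes nor cohorts are explained. Birds of both ages share codes, and over the control libraries of all ages, in 24 codes, libraries of 1 code had a consensus correlation of 0.11.

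Bird marrow makes red cells, which keep their nucleus, as well as thrombocytes, granulocytes, monocytes and lymphocytes, and it holds bone, fat and vessel cells too. In birds marrow takes over blood formation from the embryonic sites and matures with the skeleton. In reproductive female birds the marrow cavity can also carry medullary bone, a store of calcium for eggshell. The RNA came from whole marrow, so fewer cells of a type and less RNA per cell cannot be told apart. The files give genes as Ensembl identifiers, 0 of which could be paired with a symbol in the reference table, so genes are named by identifier, none is given a function, and the tissue label could not be checked against marker genes.

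Library totals ranged from 4632900 to 14734200 assigned reads over both ages, with a median of 7474370 at day 35 and 8100150 at day 90. Totals, RNA integrity (RIN), the share of counts in the 3 most abundant genes and the number of genes detected were compared between the ages. No difference passed after adjustment for 4 tests (permutation, two-sided, 100000 resamples). RIN was given for 16 libraries of day 35 and 15 of day 90. The lowest adjusted p = 0.127 (permutation, unadjusted p = 0.0316) was for genes detected, with a mean of 15966 at day 35 and 16143 at day 90. At the earlier ages RIN, where given, ran from 6.2 to 8.3 in day 6 controls and from 7.7 to 9.3 in day 18 controls. Its part in the changes from day 6 to day 18 given below was not tested. Z134 and Z93 had totals of 5901400 and 5822860 reads and RIN values of 9.4 and 8.7. On the first 2 principal components of the control libraries they lay 103.3 and 88.3 units from the median of the day 90 birds, where the farthest other bird of day 35 or day 90 lay 43.2 from that of its own age. They were thus left out on their measured expression, not on their labels, and the counts and medians that moved most with this choice are given with them as well.

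From day 35 to day 90, 160 of 13236 tested genes changed in control marrow (1.21%; limma, adjusted p under 0.05). Of these 49 fell (0.37% of tested genes) and the others, 69.4% of the calls, rose (0.839% of tested genes). The rises were the larger changes, with a median of 1.06 on the log2 scale, and 62 of them reached 2-fold. The falls had a median of -0.36, and 11 of the 49 reached 2-fold. Over all tested genes the median change was -0.002 and the median absolute change 0.12, and 1902 genes had an unadjusted p under 0.05.

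The count depended on which libraries entered. The fit called 84 (67 up, 17 down) when the day 6 and day 18 controls were left out of the fit, 86 with Z134 and Z93 put back, and 83 without control day 90 replicate 12. It was higher by other choices, with 240 calls without control day 90 replicate 11, 230 with the title code as a random effect, 328 by DESeq2 and 503 by voom with quality weights. With the title code as a random effect all 160 genes were called again. The last called genes inside the threshold had an adjusted p of 0.0497 with log2 changes of -0.29 and 0.47, and the first outside had 0.0504 and 0.0518 with changes of 0.61 and 0.73.

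The genes that rose were of modest abundance. Their mean log2 level over both ages had a median of 6.26, beside 7.62 for all tested genes and 8.53 for the falling genes. Their day 35 medians had a midpoint of 51.7 normalised counts, and their day 90 medians one of 121.2 normalised counts. At the lower end 14 had a day 35 median under 10, and at the upper end 6 had a day 90 median of at least 1000. The genes that fell were more abundant, with a midpoint of 411 normalised counts at day 35 and 334 at day 90, and 10 of the 49 had a day 35 median of at least 1000. The rising genes together made up 0.235% of all normalised counts at day 35 and 0.429% at day 90, and the falling genes 0.662% and 0.513%. These sums describe genes that were chosen by this difference.

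The genes with the largest changes were taken among called genes with a mean of at least 5 on the log2 scale. ENSTGUG00000007792 had from 4.22 to 154.7 normalised counts at day 35 with a median of 19.8, and from 42.9 to 190.3 with a median of 59.2 at day 90. All 19 adults lay above the juvenile median, but only 2 of them exceeded the highest juvenile, a female. The gene rose by 1.93 ± 0.36 (SE) on the log2 scale, which is 3.82-fold (limma, adjusted p = 0.000906).

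ENSTGUG00000001295 separated the ages more clearly. It ran from 8.35 to 76.3 normalised counts at day 35 (median 34.05) and from 36.8 to 311 at day 90 (median 121.5). Above the highest juvenile lay 13 of 19 adults. The log2 change was 1.91 ± 0.34 (SE; limma, adjusted p = 0.000728). Its earlier course was different, since in controls it fell from a median of 28.04 normalised counts at day 6 to 7.21 at day 18 (log2 change -1.58, adjusted p = 0.000141).

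ENSTGUG00000006579 had the largest fall of all tested genes that were called. Its normalised counts ran from 78.6 to 1135 with a median of 364 in juveniles and from 22.4 to 196 with a median of 80.6 in adults. All 19 adults lay below the juvenile median and 8 lay below the lowest juvenile. The fall was -2.52 ± 0.40 (SE) on the log2 scale, so that juveniles had 5.74 times the adult level (limma, adjusted p = 0.00014). This gene was also low in nestlings, with a median of 28.2 normalised counts at day 6, and it rose to a median of 448 at day 18 (log2 change 3.75, adjusted p = 2.96e-11). Its level was therefore high in the middle of the series and low at both ends.

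ENSTGUG00000012648 was highest in nestlings and lowest in adults. Its medians were 571 normalised counts in day 6 nestlings, 227 at day 18, 181 at day 35, then 63.002 in adults. At day 35 single birds ranged from 38.4 to 874 and at day 90 from 31.3 to 164.01. All 19 adults lay below the juvenile median, and 4 below the lowest juvenile. The last step was -1.56 ± 0.33 (SE; limma, adjusted p = 0.00511) and the first, from day 6 to day 18, -1.27 (adjusted p = 0.00134).

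**Figure D1:**
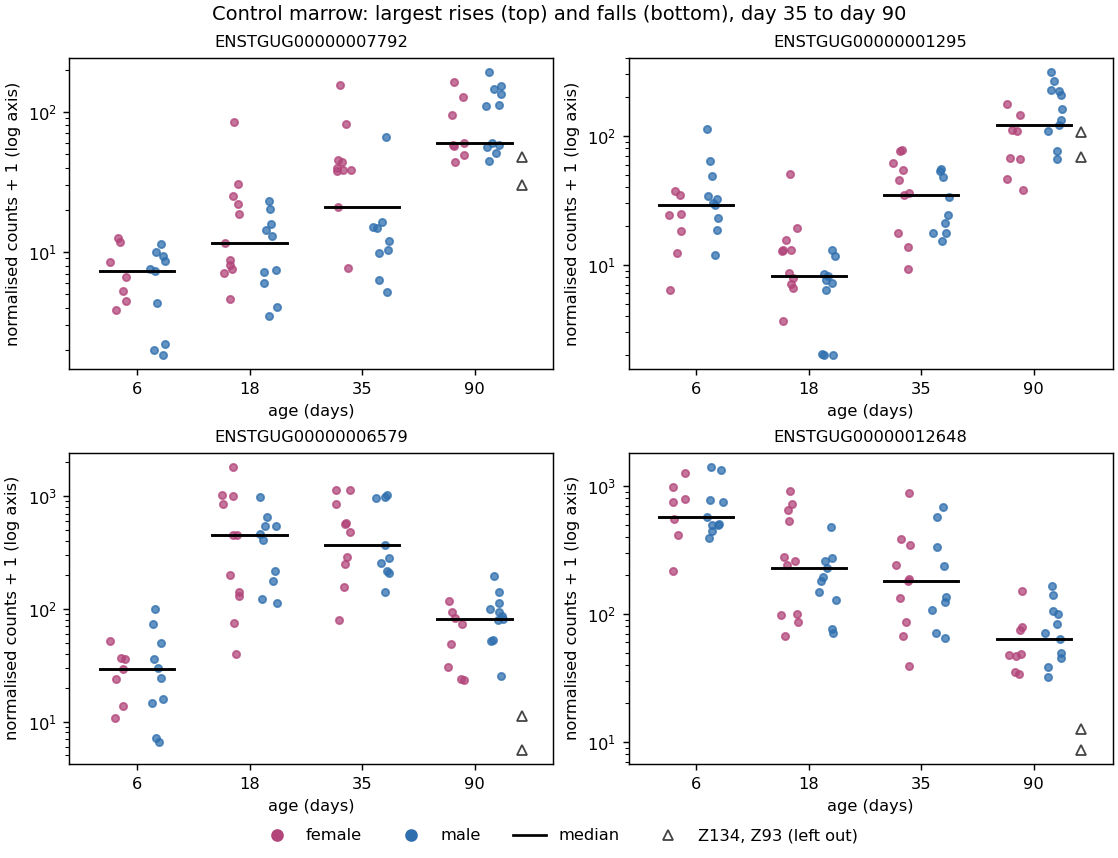
Normalised counts plus 1 (log axis) of the genes with the largest rises (top) and falls (bottom) from day 35 to day 90, in control birds of 4 ages; points are single birds, bars medians, and open triangles Z134 and Z93. ENSTGUG00000001295 had a median of 34.05 at day 35 and 121.5 at day 90, and ENSTGUG00000006579 had 364 and 80.6; for the latter gene both left-out libraries lie under the lowest kept adult.

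MeHg birds went through the same step, and none of their libraries had been used to call the genes. Of the genes that rose in controls, all but 1 had a positive change in MeHg birds and 95 also rose there by the test (85.6%), where 4.05% of all tested genes did. Of the 49 that fell in controls, 48 had a negative change and 14 fell by the test (28.6%), against 1.05% of tested genes. The medians in MeHg birds were 1.07 for the rising genes and -0.23 for the falling genes, beside 1.06 and -0.36 in controls and -0.001 over all tested genes. Across tested genes 49.7% had a positive change in MeHg birds.

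The MeHg fit called 675 genes (5.1%), 536 of them up, and the genes called in both treatments in 1 direction were 68.1% of the control calls and 16.1% of the MeHg calls. None was called in opposite directions. Of the 441 genes called upward in MeHg birds but not in controls, 430 had a positive control change, with a median of 0.34 beside 0.63 in MeHg birds. Over all tested genes 49.6% had a positive control change. The test of whether the step was unequal in the treatments called 0 genes (0%; limma, lowest adjusted p = 0.942), where 663 genes had an unadjusted p under 0.05. By edgeR 0 genes passed, and 713 were at that unadjusted level. With Z142 put back, the MeHg fit called 370 genes.

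**Figure D2:**
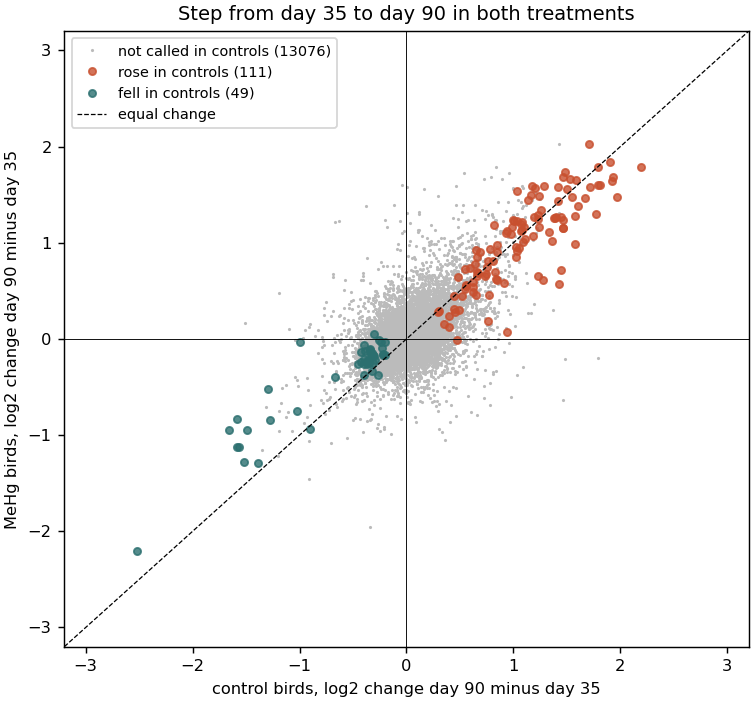
Log2 change from day 35 to day 90 of 13236 genes in control birds (horizontal) and in MeHg birds (vertical), which share no library; orange points rose and green points fell in controls. In MeHg birds all but 1 of the orange points lie above 0 and 48 of 49 green points below.

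Among genes called in both treatments, 2 in each direction were taken by the smallest p in MeHg birds. That choice favours the changes and p-values of these genes in MeHg birds. ENSTGUG00000021045 ran from 67.1 to 202 normalised counts in control juveniles (median 124.7) and from 132.9 to 439.8 in control adults (median 246), and 13 of 19 adults lay above every juvenile. It rose by 1.03 ± 0.18 (SE) on the log2 scale in controls (limma, adjusted p = 0.000381). In MeHg birds its medians were 135.4 and 306 normalised counts, a rise of 1.22 ± 0.15 (SE; limma, adjusted p = 2.05e-07). It was lower still in nestlings, with control medians of 35.5 at day 6 and 81.2 at day 18 (log2 change 1.10, adjusted p = 9.64e-07).

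ENSTGUG00000009152 had 73.1 to 344 normalised counts in control juveniles (median 170.4) and 119.5 to 1122 in control adults (median 291). Here 3 of 19 adults lay below the juvenile median, so the ages overlapped widely. The rise was 1.07 ± 0.21 (SE; limma, adjusted p = 0.00144) in controls and 1.196 ± 0.16 (SE; limma, adjusted p = 7.8e-07) in MeHg birds, whose medians were 168.3 and 358.

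ENSTGUG00000022429 fell from a median of 87.9 normalised counts (32.6 to 361) to 33.6 (6.08 to 97.6) in controls, where 18 of 19 adults lay below the juvenile median and 9 below the lowest juvenile. The change was -1.51 ± 0.35 (SE; limma, adjusted p = 0.014) in controls and -1.28 ± 0.25 (SE; limma, adjusted p = 0.000581) in MeHg birds. On the control libraries with a RIN it missed the threshold (adjusted p = 0.0718).

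ENSTGUG00000001579 had a small fall beside a large difference between the sexes. Control males had a median of 383 normalised counts at day 35 (321 to 460.3) and 279.6 at day 90 (233 to 384), and control females 196 (162.4 to 252) and 189 (113.03 to 206). Males thus lay above females at both ages, and within each sex the ages overlapped. Z134 and Z93, both female, had 254 and 233, above the highest kept adult female. The change was -0.27 ± 0.07 (SE; limma, adjusted p = 0.0375) in controls and -0.37 ± 0.07 (SE; limma, adjusted p = 0.000257) in MeHg birds. This call was lost without covariates (adjusted p = 0.531), with day 35 and day 90 libraries only (0.137), with Z134 and Z93 put back (0.188) and on leaving out any of 14 single libraries.

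The earlier ages show where the last step belongs in development. In controls all but 3 of the rising genes (97.3%) had their highest mean at day 90, against 25.4% of tested genes. Of the 49 falling genes 45 had their lowest mean there, against 23.1%. The choice of genes favours both counts. MeHg birds give the same description without that choice: all but 4 of the rising genes (96.4%) were highest at day 90, where 27.4% of all tested genes were, and 40 of the 49 were lowest at day 90, against 24.9%.

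The step before, from day 18 to day 35, was read in MeHg birds, because the control step shares its day 35 libraries with the comparison. In MeHg birds 91.9% of the rising genes had already risen from day 18 to day 35, against 18.7% of tested genes, and 0 had fallen. The median of that change was 0.83 on the log2 scale, beside 0.02 over all tested genes. Of the 49 falling genes 34 had already fallen, against 17.0% of tested genes, and 0 had risen. In controls the median changes of that step were 0.93 for the rising and -0.29 for the falling genes. In MeHg birds most of these genes were thus already moving in their later direction between day 18 and day 35.

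Still earlier the genes followed no common course. From day 6 to day 18 in controls, which shares no library with the comparison, 49 of the rising genes rose (44.1%, against 32.4% of tested genes) and 24 fell (21.6%, against 29.3%). Of the 49 falling genes 15 rose and 15 fell (30.6% each). The medians were 0.35 for the rising genes, 0.06 for the falling genes and 0.04 over all tested genes. The part of the lower RIN range of the day 6 libraries in these changes was not tested.

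**Figure D3:**
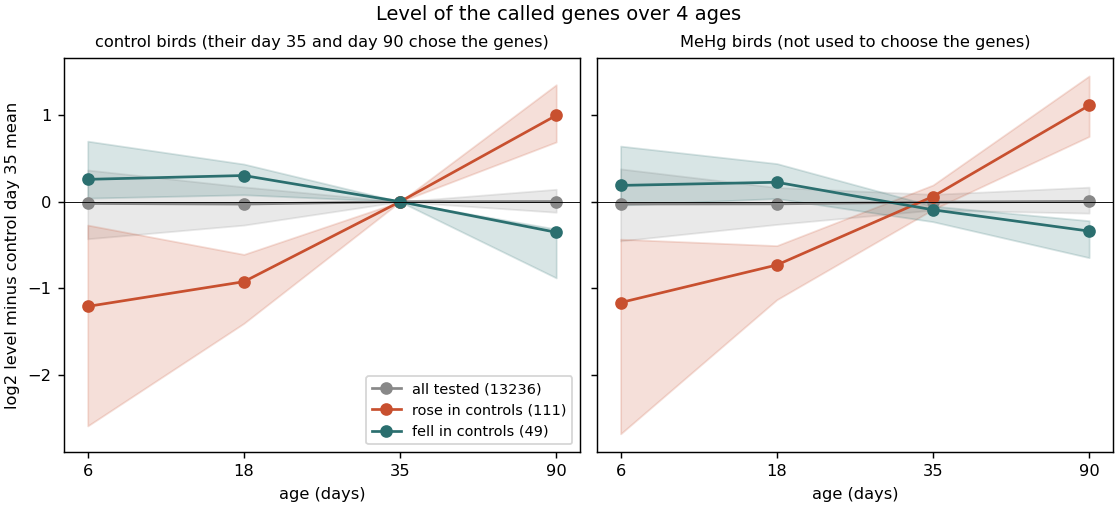
Level of the rising (orange) and 49 falling (green) genes and of all 13236 tested genes (grey) at 4 ages, as log2 level minus the control day 35 mean; lines are medians over genes and bands the middle 50% of genes. In MeHg birds the rising genes ran from a median of -1.17 at day 6 through -0.73 and 0.06 to 1.11 at day 90.

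The birds themselves varied in how far the genes had moved. For each bird the log2 levels of the rising genes were averaged after subtraction of the control day 35 mean. Juvenile controls ranged from -0.68 to 0.74 with a median of 0.01, and adult controls from 0.45 to 1.67 with a median of 1.07. The highest juvenile lay below 14 of the 19 adults. For the falling genes juveniles ranged from -0.27 to 0.35 and adults from -0.82 to -0.35, with no overlap, which the choice of the genes favours. No single gene of the 160 or of all 13236 tested had ranges that did not overlap between the ages.

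MeHg birds had no part in the choice. Their means over the rising genes ran from -0.98 to 0.78 at day 35 and from -0.005 to 1.77 at day 90, and 16 of 21 adults lay above the highest juvenile and 19 above the juvenile median. Over the falling genes they ran from -0.68 to 0.25 and from -0.95 to -0.21, and 7 of 21 adults lay below the lowest juvenile and all 21 below the juvenile median. Z142, the day 90 MeHg female left out, is not in these ranges and counts. Its mean over the rising genes was -1.16, under every MeHg juvenile, and over the falling genes -0.91.

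Z134 and Z93 lay outside the kept adults for the rising genes. Their means over the rising genes were -0.58 and 0.13, both under the lowest kept adult at 0.45. Over the falling genes they were -0.69 and -0.89, on the adult side of every juvenile. Gene by gene the falling set was mixed. Of the 49 falling genes, 25 in Z134 and 32 in Z93 lay below the juvenile mean. Above the range of the kept adults lay 17 of them in Z134 and 9 in Z93, and below it 8 and 10. Of all 13236 tested genes, 2506 in Z134 and 1931 in Z93 lay above that range, and 3009 and 2458 below it. Z134 had 21.6% of the rising genes above the juvenile mean and Z93 had 62.2%, where 48.6% and 50.01% of all tested genes were. The genes had been chosen as high in the other adults, without these libraries. ENSTGUG00000006579 had 4.62 and 10.2 normalised counts in Z134 and Z93, and ENSTGUG00000001295 67.8 and 106.3. Over all tested genes the mean log2 level of these libraries lay 0.32 and 0.25 under the juvenile mean (-0.32 and -0.25), and its part in these values was not tested.

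**Figure D4:**
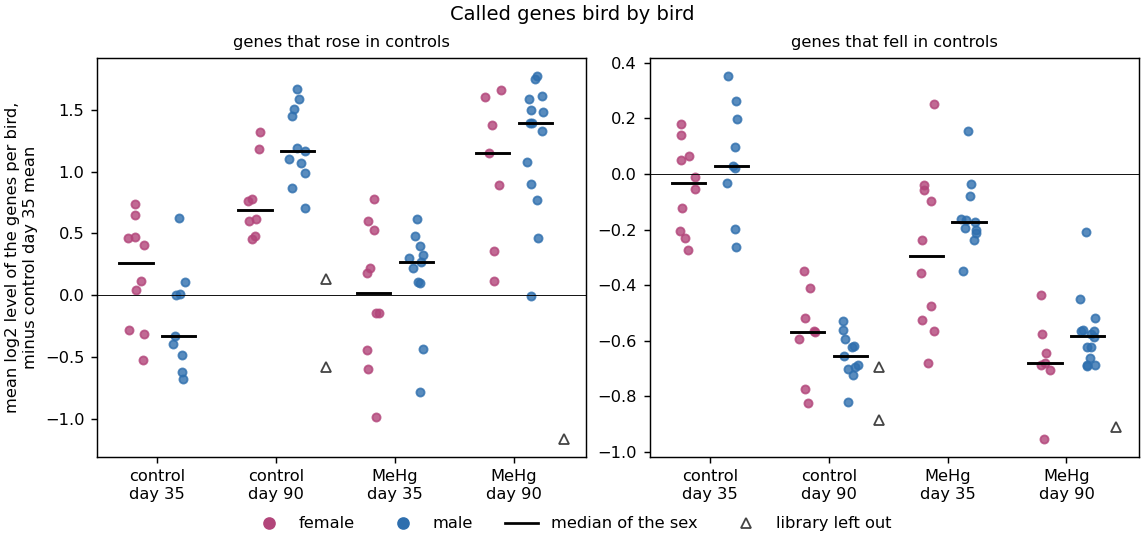
Mean log2 level per bird of the genes that rose (left) and the 49 that fell (right) in controls, minus the control day 35 mean, by treatment, age and sex; points are birds, bars medians of each sex, and open triangles the libraries left out. Control adults lie between 0.45 and 1.67 for the rising genes, and Z134 and Z93 at -0.58 and 0.13.

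The rising genes also moved together from bird to bird within day 90. After age, sex, cohort and plate were removed, pairs of rising genes had a median Pearson correlation of 0.41 over the 19 adult controls, and 87.5% of pairs were positive. In the 21 adult MeHg birds the median was 0.48 and 94.99% were positive, and over all pairs of tested genes 49.9% were positive in either treatment. Rising and falling genes tended apart, with medians of -0.12 in controls and -0.26 in MeHg birds. With Z134 and Z93 put back the median between rising genes was 0.52 over 21 adult controls. These genes share libraries and depth, and the correlations are given as a description.

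Among control birds the rising genes changed more in males by their median, although no gene passed the test of the sexes. The rising genes had a median change of 1.48 in males and 0.55 in females on the log2 scale. In 92.8% of them the male change was the larger, where 50.8% of tested genes had a larger male change. These same birds chose the genes, and the genes moved together from bird to bird, so the share does not count independent genes. For the falling genes the medians were -0.46 in males and -0.32 in females. With Z134 and Z93 put back the medians of the rising genes were 1.46 in males and 0.33 in females. The sexes were not tested within an age, but their medians differed at both ages. At day 35 the mean per bird over the rising genes had a median of -0.33 in males and 0.26 in females. At day 90 it was 1.17 in males and 0.69 in females. By these medians juvenile males were the lower sex and adult males the higher. The means per bird were not adjusted for plate, and several plates held only males or only females among the controls of an age. The ranges of the sexes overlapped, from -0.68 to 0.62 in juvenile males and from -0.53 to 0.74 in juvenile females. Adult males ran from 0.70 to 1.67 and adult females from 0.45 to 1.32. In MeHg birds, with Z142 left out, males had the higher median at both ages, 0.27 against 0.02 at day 35 and 1.40 against 1.15 at day 90.

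In 1 fit of both sexes the step called 317 genes in males (2.39%; 220 up, 97 down) and 3 in females (0.0227%). The counts at an unadjusted p under 0.05 (limma) were closer, with 2059 genes in males and 1798 in females. The standard errors were close, with medians of 0.18 and 0.19. The difference between the sexes itself passed for 0 genes (0%; limma, lowest adjusted p = 0.0749), where 2092 genes had an unadjusted p under 0.05. By edgeR 2 genes passed. With Z134 and Z93 put back, 835 genes passed that test, and the counts turned around, with 212 genes called in males and 963 in females. Which sex had more calls thus rested on these libraries.

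ENSTGUG00000007792 had the widest gap between the sexes of the named rising genes. Its male change exceeded its female change by 1.85 on the log2 scale, where the other named rising genes had 1.38, 0.99 and 0.93. In control males its median was 11.0 normalised counts at day 35 and 109.2 at day 90, and in control females 38.01 and 58.1. The difference of its change between the sexes did not pass, as for all genes. Its change was 2.82 in males (limma, adjusted p = 0.000349) and 0.98 in females (limma, adjusted p = 0.384). ENSTGUG00000006579 fell in both sexes, by -2.12 in males (limma, adjusted p = 0.0285) and -2.96 in females (limma, adjusted p = 0.0394).

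Fitted without the other sex, males called 1.18% of tested genes, 31 of them down and the other 80.1% up, and females called 1 (0.00756%), or 218 with Z134 and Z93 put back. The female libraries can be set against the male calls, since they share none. Of the genes called upward in males all but 20 had a positive change in females, where 49.5% of all tested genes did, with a median of 0.25 in females and 1.41 in males. Of the 31 called downward, 17 had a negative change in females, where 50.5% of all tested genes did, with a median of -0.03 beside -0.57 in males. With Z134 and Z93 put back, 80 of the upward and 12 of the 31 downward genes went the male way in females, where 46.99% of all tested genes had a positive and 53.01% a negative change. The male count ranged from 53, without control day 90 replicate 12, to 366, without control day 35 replicate 8. Without control day 90 replicates 11 and 14 it was 278 and 72, and without control day 35 replicate 18 it was 91.

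In MeHg birds, with the day 90 female Z142 left out, the medians of the sexes lay close together. The fit of MeHg birds by sex was not run with Z142 put back. The rising genes had a median change of 1.03 in MeHg males and 0.97 in MeHg females, and the male change was the larger in 54 of them (48.6%). The falling genes had medians of -0.20 and -0.21. The step called 443 genes in MeHg males (3.35%; 14 adults) and 13 in MeHg females (0.0982%; 7 adults). At an unadjusted p under 0.05 (limma) were 2184 genes in MeHg males and 1859 in MeHg females. The test of the sexes called 0 (0%; limma, 1419 genes at an unadjusted p under 0.05). Whether the sex difference of controls was itself unequal to that of MeHg birds was not tested.

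**Figure D5:**
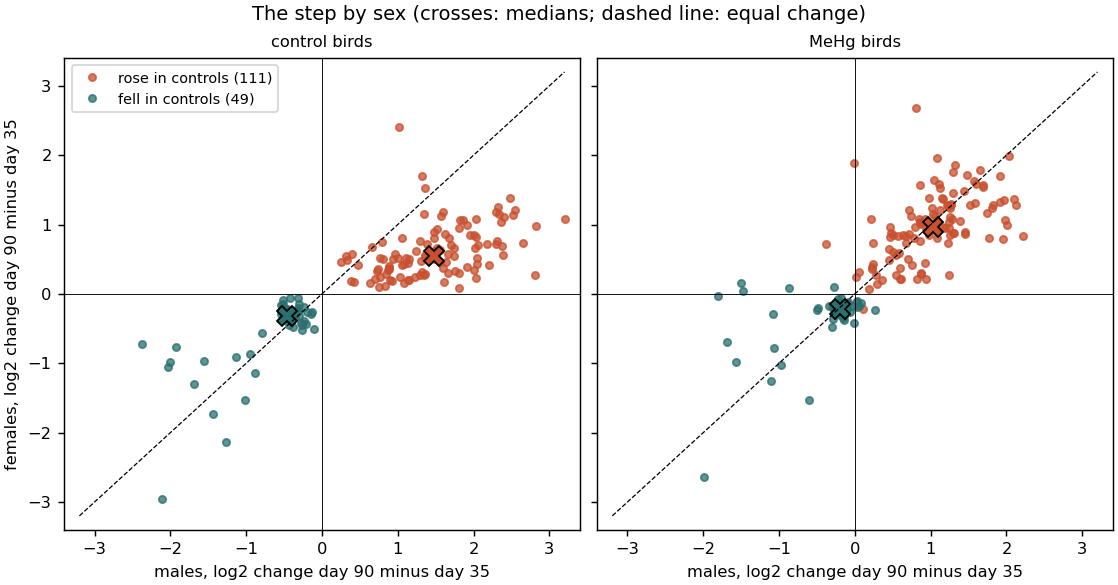
Log2 change from day 35 to day 90 in males (horizontal) and females (vertical) of the rising (orange) and 49 falling (green) genes, in control birds (left) and MeHg birds (right); crosses are medians and the dashed line marks equal change. With Z134, Z93 and Z142 left out, the rising genes have medians of 1.48 in males and 0.55 in females among controls, and 1.03 and 0.97 among MeHg birds.

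Cohorts and plates were looked at in the same way. In 1 fit of both cohorts the step called 31 genes in cohort 1 (0.234%; 8 juveniles, 11 adults) and 4 in cohort 2 (0.0302%; 11 juveniles, 8 adults). With Z134 and Z93, both of cohort 2, put back, cohort 1 called 24 and cohort 2 called 2. With both left out, the rising genes had medians of 1.15 in cohort 1 and 0.88 in cohort 2, and the falling genes -0.27 and -0.46. With both put back these medians were 1.13 and 0.66 for the rising genes, and -0.26 and -0.36 for the falling genes. The test of the cohorts against each other called 0 genes (0%; limma, lowest adjusted p = 0.786), with 560 at an unadjusted p under 0.05, and edgeR called 0 with 609 at that level.

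Of the library plates, 6 held at least 2 birds of each age. Within them 88.3% to 100% of the rising genes had a positive difference, and 43 to 49 of the 49 falling genes a negative one. The medians of the rising genes ran from 0.55 on plates F and G to 1.57 on plate I, and those of the falling genes from -0.32 on plate B to -0.58 on plate I. Over all tested genes the plate medians lay between -0.01 and 0.01. ENSTGUG00000006579 differed between the ages by -1.64 to -3.00 on the 6 plates, and ENSTGUG00000001295 by 0.82 to 3.17. ENSTGUG00000001579 had a positive difference on 3 of the plates, which did not balance the sexes. These plates supplied the calls, so the direction was in part fixed by the choice.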

How the data were processed

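Bone marrow RNA was sequenced as poly(A)-selected libraries, per the labels' protocols. Tools named in the submitters' processing notes are featureCounts, Subread, DESeq2 1.30.1 and R 4.0.2. Genome build, annotation and strand: not given in the sources used here. Overlapping, antisense and near-identical genes therefore cannot be recognised. The authors deposited a normalised signal, which behaves as gene counts divided by a size factor per library: 100% of values were whole multiples of the library's step within a relative tolerance of 1e-06. The recovered reads gave the library totals, whose number limits the precision of low genes.

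The deposited values were tested as log2(value + 1), with limma 3.58.1 in R 4.3.3 (trend and robust), with age group, sex, cohort and plate, over the 76 kept control libraries of 4 ages. Fold changes are on that scale and understate the change of low genes. Genes entered with 10 or more normalised counts in 10 or more of the 38 libraries, which kept 13236 of 17292. P-values were adjusted by Benjamini-Hochberg over all of them, and a call is an adjusted p under 0.05. MeHg birds were fitted by themselves (82 libraries), and the treatments compared in a joint fit (158 libraries). edgeR 4.0.16 on recovered reads, as an alternative, called 169 genes in the control step. The other alternatives, DESeq2 1.42.0 among them, are given in the closing section.

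Of 169 labelled libraries, 8 were not analysed here. Genes were named by rule, 2 each way: the largest changes among calls with a mean log2 level of at least 5, and, among genes called in both treatments, the smallest p in MeHg birds. The members, rules and tests were chosen with earlier results of these data known. Separate fits of the sexes, the fits by sex and cohort with Z134 and Z93 put back, and the MeHg birds by sex and at earlier steps, were added after the data were seen. The labels leave unsaid whether every library is another bird, and p-values then rest on the spread among libraries, which may be technical. No pair of libraries of an age was alike within sampling noise, with the lowest chi-square per gene at 13.8. Marker lists could not be looked up, since 0 identifiers matched the 23294 genes of the reference table, and no sequences are printed for the same reason.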

Additional observations from a re-analysis of the deposited data

Results flagged for a closer look

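Both left-out day 90 control females held signal that the comparison does not use. In Z134, 5515 of 13236 tested genes (41.7%) lay outside the range of the 19 kept day 90 controls, 2506 above and 3009 below. In Z93, 4389 genes (33.2%) did, 1931 above and 2458 below. Each kept library set against the other 18 had from 694 to 2486 such genes, with a median of 1216. Of the genes that rose from day 35 to day 90, 73 (65.8%) in Z134 and 30 (27%) in Z93 lay below the range of the kept adults. Of all 13236 tested genes 3009 and 2458 did. The rising genes had been chosen as high in the kept adults without these libraries, which favours their counts. Detected genes numbered 14871 and 15211, fewer than in any kept control of day 35 or day 90, where the lowest had 15367. Both were of cohort 2 and on different plates, I and J. The part of these measures in the difference was not tested.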

How the results depend on the processing

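Calls are given as a percent of the genes tested. Of 18 alternatives for the control step, 12 stayed within 1.5 times the 160 calls (1.21%). The others called 2.48% (DESeq2), 3.80% (voom with quality weights), 0.635% (day 35 and day 90 only), 0.801% (all libraries of both treatments), 0.65% (Z134 and Z93 put back) and 0.574% (Z134 alone put back), and the cause was not tested. With Z134 and Z93 back, 69 of the 160 genes were still called. Leaving out 1 library at a time gave 0.627% (without control day 90 replicate 12) to 1.81% (without replicate 11). The MeHg step called 2.80% in place of 5.1% with Z142 put back. The sex test called 6.31% with Z134 and Z93 put back, 0.0151% by edgeR and 0.0227% with a pseudocount of 8, in place of 0. Females fitted without males called 1.65% with both put back, and 0.00756% to 0.0453% without single libraries; males called 0.40% to 2.77%. The cohort test and the test of the treatments called 0 in each alternative run. No named gene changed direction, and 6 of the 8 passed in all 18 alternatives and all 38 fits without a single library; the exceptions were ENSTGUG00000001579 and ENSTGUG00000022429, the latter with RIN added (adjusted p = 0.0634). No paired analysis was possible because replicate numbers, which the labels do not give, were set in accession order; the title codes of the labels, taken as a random effect, gave 1.74% with all 160 genes called. Low genes are limited by depth, since 1 read weighs most in the smallest libraries.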
